A study of Gallus gallus and Dromaius novaehollandiae with 14 samples.

Results

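The 80 genes described here were those with the highest expression in reticulate scale epidermis in both the chicken and the emu. They were chosen among the 8751 genes of an RNA sequencing table, whose values were squared to give TPM, a measure of transcript abundance that corrects for transcript length and for the total of the library. Expression was taken as log2(TPM + 1) and averaged over the libraries of each species and appendage. The score of a gene in a species was its reticulate scale mean minus the highest of its feather, scutate scale and claw means. Genes with at least 5 TPM in each of the 3 reticulate scale libraries, which 5206 genes had, were ranked by the smaller of their chicken and emu scores. Both scores were above 0 for 665 of these (12.8%), and the first 80 in rank were kept.

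The study sampled embryonic epidermis from 4 skin tracts of each bird, at the stage when placodes, the epidermal thickenings that start an appendage, are present. Embryos were at Hamburger and Hamilton stage 33 to 34 for feather, 36 for claw, 37 for scutate scale and 39 for reticulate scale, in both species. Incubation was at 37.8 °C in chicken and 35.5 °C in emu, and the epidermis was separated with dispase, a protease. There were 2 libraries for each of the 4 chicken groups and for emu feather and emu scutate scale, and 1 library each for emu reticulate scale and emu claw. No strain, sex, treatment or genetic change is given in the labels, and nothing in them states whether a library came from 1 embryo or from several. Reticulate scale was the latest stage in both birds, so stage and appendage cannot be told apart in any result below, and temperature and species cannot be told apart either.

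Reticulate scales are the small, rounded scales that cover the underside of the bird foot. They are classically described as radially symmetric and rich in alpha-type keratins, whereas scutate scales, claws and feathers are built largely from corneous beta proteins. Scutate scales are the overlapping plates on the front of the shank and the upper side of the toes. The table carries Ensembl chicken gene IDs for both birds and pairs them with no gene names, and 0 of the 8751 IDs could be matched to a symbol in the reference used here. The functions of the genes are therefore not described, the tissue could not be checked against its marker genes, and whether a gene shares reads with a near copy is unknown. A few IDs stand as examples.

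Summed over the 80 genes, expression in reticulate scale stood well apart from the other tracts in both birds, which is what their choice required. Their summed TPM made up 0.789% and 0.604% of the TPM listed in the chicken reticulate scale libraries and 0.789% in the emu one. It was 0.326% and 0.343% in chicken scutate scale, and 0.337% and 0.365% in emu scutate scale. In feather it was 0.228% and 0.235% in chicken and 0.289% and 0.286% in emu. In claw it was 0.231% and 0.217% in chicken and 0.229% in emu. Scutate scale thus held the second highest share in both species.

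**Figure D1:**
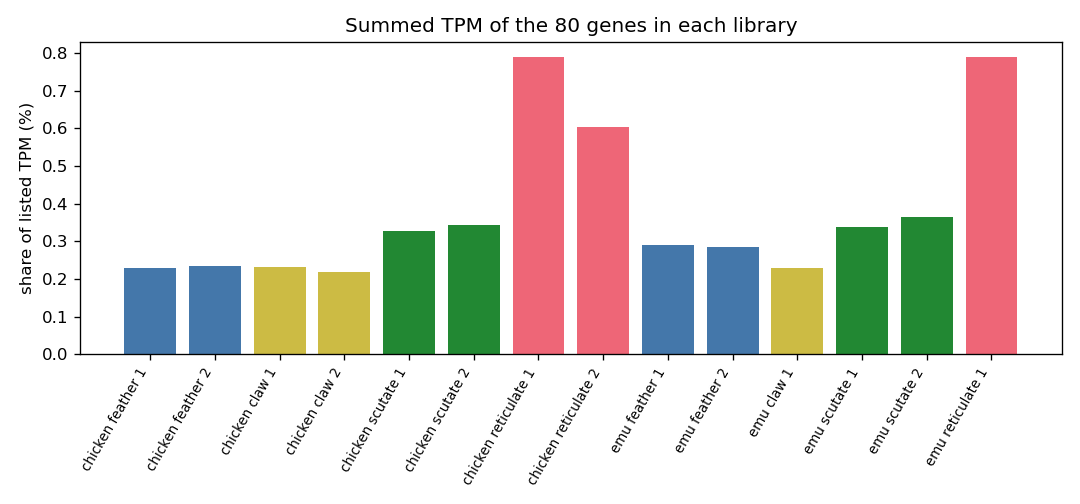
Share of the listed TPM (%, vertical axis) taken by the 80 genes in each of the 14 libraries, coloured by appendage. Reticulate scale libraries reach 0.604% to 0.789%, and no other library exceeds 0.365%.

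The genes were mostly of moderate abundance. The mean TPM over the 3 reticulate scale libraries ranged from 5.63 to 305, with a median of 35.7, and 8 genes reached 100 TPM while 22 were under 20. None of the 80 was listed at 0 in any library. The highest was ENSGALG00000011656, at 499 and 211 TPM in chicken reticulate scale and 205 in emu. In chicken it was at 45.8 and 44.1 TPM in feather, 128 and 105 in scutate scale, and 123 and 48.0 in claw, all below the reticulate scale libraries. In emu it was at 66.8 and 52.3 TPM in feather, 83.2 and 93.7 in scutate scale and 19.4 in claw, again without overlap. Its chicken replicates differed more than 2-fold in reticulate scale and in claw.

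The size of the reticulate scale excess varied widely among the 80 genes. The chicken score ranged from 0.38 to 3.28 with a median of 0.61, and the emu score from 0.37 to 2.74 with a median of 0.84. Both scores were at least 0.5 for 46 genes and at least 1, a doubling of TPM + 1, for 10. Counting each bird without regard to the other, 17 genes reached a score of 1 in chicken and 28 in emu. The smaller score was the chicken one for 56 genes and the emu one for 24. At the rank limit there was no gap. The smaller score of the last 5 genes inside lay between 0.371 and 0.377, and that of the first 5 outside between 0.365 and 0.370.

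**Figure D2:**
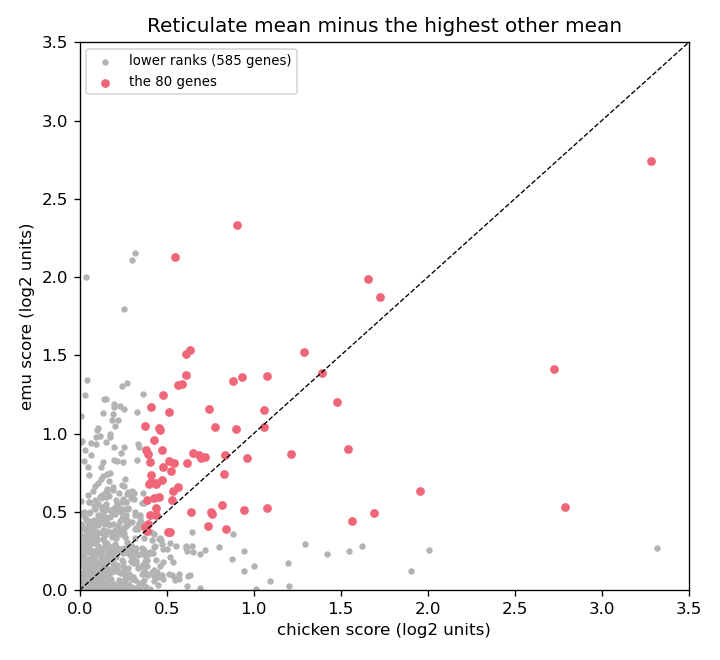
Chicken score (horizontal axis) against emu score (vertical axis), both in log2 units, for the 80 genes and the 585 lower-ranked genes with both scores above 0. The dashed line marks equal scores, and only 1 gene has both scores above 2.

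The gene ranked first, ENSGALG00000009415, was the only one with both scores at least 2. In chicken it was at 175 and 182 TPM in reticulate scale, against 11.7 and 25.7 in scutate scale, 0.64 and 4.90 in claw, and 0.81 and 0.92 in feather. In emu it was at 291 TPM in reticulate scale, against 42.6 in claw, 19.02 and 25.2 in scutate scale, and 5.60 and 4.15 in feather. On the scale of TPM + 1, reticulate scale exceeded the next appendage 9.73-fold in chicken and 6.70-fold in emu. The next appendage was scutate scale in chicken and claw in emu, and feather was lowest on average in both.

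ENSGALG00000016153 ranked second, with a score of 1.73 in chicken and 1.87 in emu. Its TPM in chicken was 151 and 188 in reticulate scale, 37.3 and 67.6 in scutate scale, 23.4 and 20.8 in claw, and 2.82 and 3.13 in feather. In emu it was 40.1 in reticulate scale, 5.64 and 17.98 in scutate scale, 5.49 in claw, and 8.73 and 7.73 in feather. Reticulate scale did not overlap the other tracts in either bird, while the order of the rest differed: feather was lowest in chicken and lay among the others in emu.

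Reticulate scale libraries exceeded every other library of the same species for 66 of the 80 genes in chicken and for 79 in emu. Among all tested genes the same held for 9.15% in chicken and for 25.5% in emu, where only 1 reticulate scale library had to be highest. The members were chosen on these values, so the counts are a description. The gene that overlapped in emu was ENSGALG00000009179, which also had unequal scores of 2.79 in chicken and 0.53 in emu. Its TPM was 311 and 254 in chicken reticulate scale and at most 44.3 in the other chicken libraries, but 8.11 in emu reticulate scale and 8.32 in emu scutate scale replicate 1. This gene was picked out for that exception after its values were seen.

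**Figure D3:**
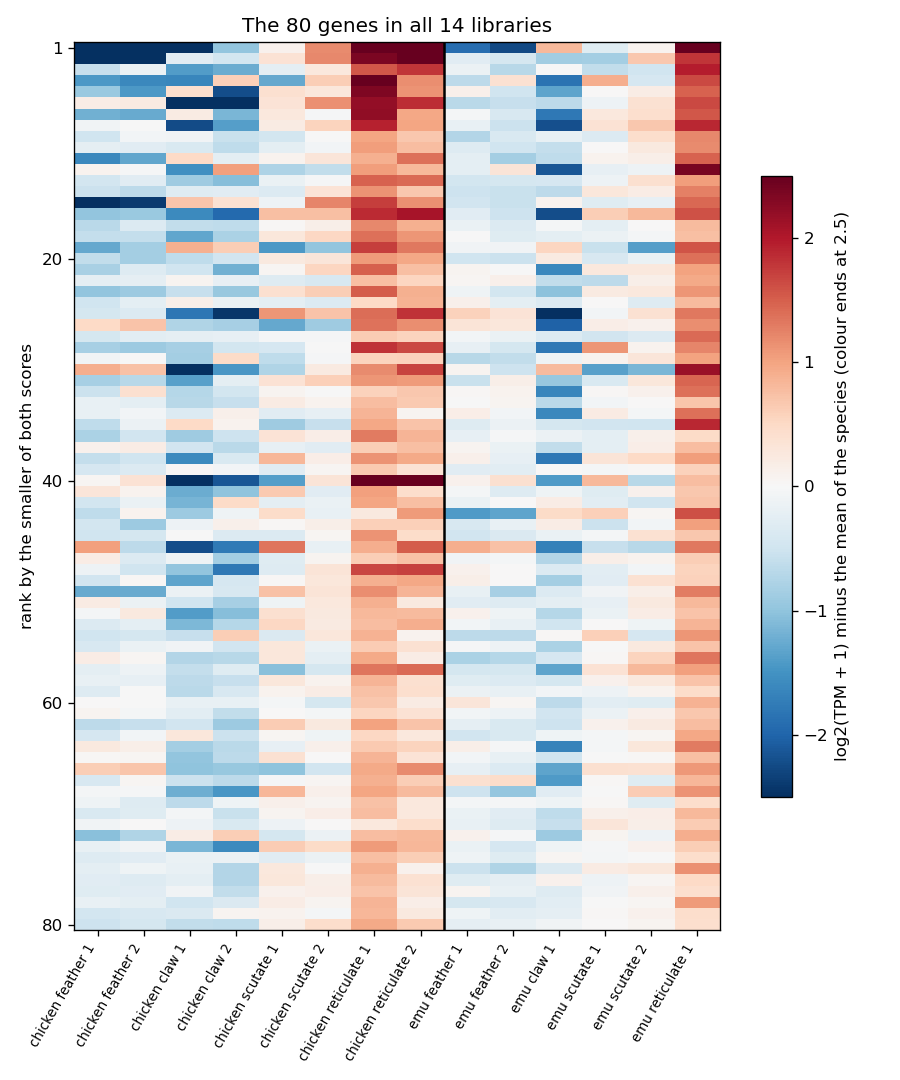
Expression of the 80 genes (rows, by rank) in the 14 libraries (columns), as log2(TPM + 1) minus the gene's mean over the libraries of the same species, with colours ending at 2.5 units. Reticulate scale columns are red throughout, and the emu claw column and the chicken feather and claw columns hold most of the dark blue.

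The chicken reticulate scale replicates were not equal for these genes. Replicate 1 was above replicate 2 for 58 of the 80 (72.5%), against 61.9% of the tested genes, with a median difference of 0.25 log2 units against 0.08. The lower-ranked genes with both scores above 0 were close to the 80, at 76.8% and a median difference of 0.21. The SD of this difference was 0.456 over the 80 genes and 0.381 over the tested genes. With replicate 1 alone the median chicken score was 0.73 and all 80 scores were above 0. With replicate 2 alone it was 0.59 and 79 were above 0. When the rule was applied without replicate 1, 58 of the 80 genes stayed in its first 80, and without replicate 2, 59 did. The emu scores rest on a single reticulate scale library, so they have no replicate check.

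The rule put a ceiling on feather, scutate scale and claw and did not set the order of these tracts. The ceiling can still bear on that order, and the tested genes as a whole were under no such ceiling. Scutate scale was the highest of them for 56 of the 80 genes (70.0%) in chicken and for 51 (63.8%) in emu. Among all tested genes it was highest for 33.1% in chicken and 27.5% in emu. It was highest in both birds for 39 of the 80 genes (48.8%), against 11.9% of the tested genes. Claw was lowest for 48 of the 80 in each bird, or 60%, near the 62.4% of all tested genes in chicken and above the 49.6% in emu. The lower-ranked genes with both scores above 0 were under the same kind of ceiling. They also had scutate scale highest most often, for 71.1% in chicken, 52.6% in emu and 40.5% in both birds. A leading scutate scale was therefore not particular to the 80.

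Scutate scale was the nearest tract to reticulate scale in stage, and it is also a scale of the foot and leg. A full rise in the order of stage, from feather through claw to scutate scale, was seen for 18 of the 80 genes (22.5%) in chicken and 16 (20%) in emu. It was seen for 5.36% and 7.18% of the tested genes. The lower-ranked genes with both scores above 0 lay between, at 12.3% in chicken and 14.7% in emu. The full rise was seen in both birds for 3 of the 80 genes. The matching count over the tested genes was not made, so this number has no background. The order is a description of group means, and no test was made of it. In chicken it depends on claw against feather, where the median of the 80 genes was -0.20. After the median-ratio rescaling described below that median was 0.20. Neither the stage order nor the lowest tract was recounted after rescaling, so the chicken counts hold only for the values as listed.

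Tests were made on contrasts that contain no reticulate scale library. A single limma model held the 8 group means of log2(TPM + 1) for the 7563 genes with at least 1 TPM in at least 2 libraries, which included all 80. The Benjamini-Hochberg method adjusted the p-values over those 7563 genes, and calls were made where the adjusted p fell under 0.05. These contrasts use the libraries that also set the ceiling of the score, so they are not wholly independent of the choice of genes. P-values measure only the spread between the libraries, which may be technical. All groups shared 1 estimate of this spread per gene, so the chicken claw pair, which differed most, enters every contrast.

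In chicken, feather and scutate scale differed in 19 of the 80 genes, and 17 of these were lower in feather. Of all tested genes, 9.82% were called, and 3.20% were called lower in feather, against 21.2% of the 80. The share called higher in feather was 6.62% of the tested genes and 2.5% of the 80. The direction was the reverse of that over all calls, of which 501 were higher in feather and 242 lower. The median log2 difference of the 80 genes was -0.35, against 0.05 over the tested genes. Fewer genes were called when either feather or either scutate scale library was left out, among the 80 and over all tested genes alike. The median of the 80 was then -0.33 without feather replicate 1, -0.43 without feather replicate 2 and -0.31 without scutate scale replicate 2. Over the tested genes it was 0.07, 0.02 and 0.06.

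ENSGALG00000011369 was among the lower ones. Its TPM in chicken was 1.15 and 1.22 in feather, 6.17 and 6.15 in scutate scale, 0.40 and 0.11 in claw, and 14.5 and 16.7 in reticulate scale. Its feather minus scutate scale difference was -1.71 (SE 0.18, limma adjusted p 0.000703). For ENSGALG00000016153, whose values are given above, it was -3.69 (SE 0.43, limma adjusted p 0.00122). The feather libraries of both genes lay below every scutate scale library.

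The 2 genes called higher in feather were ENSGALG00000009248 and ENSGALG00000002525. The first was at 7.98 and 9.44 TPM in chicken feather, 1.62 and 2.42 in scutate scale, 2.78 and 2.58 in claw, and 15.3 and 13.2 in reticulate scale. The second was at 10.5 and 11.1 TPM in feather, 2.72 and 4.38 in scutate scale, 2.73 and 2.89 in claw, and 13.4 and 16.0 in reticulate scale. Both thus had feather as the next highest tract. Their differences were 1.70 (SE 0.18, limma adjusted p 0.000685) and 1.39 (SE 0.19, limma adjusted p 0.0024).

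In emu, 3 of the 80 genes were called between feather and scutate scale, all lower in feather. No call was higher in feather, where 2.58% of the tested genes were. That is 3.75% against 4.84% of all tested genes called, and against 2.26% called lower in feather, so the count was near the background in this model. The median difference of the 80 was -0.23, against 0.02 over the tested genes, and 26 of the 80 (32.5%) had an unadjusted p under 0.05, against 18.1% of the tested genes. The number of calls was unsteady. Without either emu feather or either emu scutate scale library fewer genes were called, among the 80 and over all tested genes alike. In a fit of the 4 libraries compared, 12 of 79 were called, where 686 of 6854 tested genes were. Of these, 11 of the 12 and 315 of the 686 were lower in feather. The median of the 80 was -0.24 without emu feather replicate 1 and -0.20 without replicate 2. Without emu scutate scale replicate 1 it was -0.29, and without replicate 2 it was -0.16.

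ENSGALG00000011369 was called in emu too, the only gene of the 80 called in both birds. Calls in both birds were not counted over the tested genes, so this number has no background. The emu TPM of ENSGALG00000011369 was 5.61 and 4.63 in feather, 11.4 and 13.1 in scutate scale, 0.73 in claw and 23.2 in reticulate scale. Its emu difference was -1.12 (SE 0.18, limma adjusted p 0.0102), with an adjusted p of 0.00411 to 0.123 over the alternatives and the highest value at a pseudocount of 0.1. ENSGALG00000004385 was at 13.1 and 13.1 TPM in emu feather, 23.6 and 32.6 in scutate scale, 6.73 in claw and 38.1 in reticulate scale. Its difference was -1.03 (SE 0.23, limma adjusted p 0.0387), and it was called in 12 of 21 alternatives, with an adjusted p of 0.0215 to 0.231.

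The chicken and emu libraries of this contrast are separate, so the birds can be set side by side. The difference had the same sign in both for 56 of the 80 genes (70.0%), against 56.2% of the tested genes. Feather was below scutate scale in both birds for 48 (60%), against 22.7%. The lower-ranked genes with both scores above 0 were close to the 80, at 66.5% for the same sign and 56.1% for feather below in both. Of the 19 genes called in chicken, 15 (78.9%) had the same sign in emu, against 63.9% of the 743 tested genes called in chicken. Among the 404 of these past the level filter of the rule, the share was 69.8%.

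**Figure D4:**
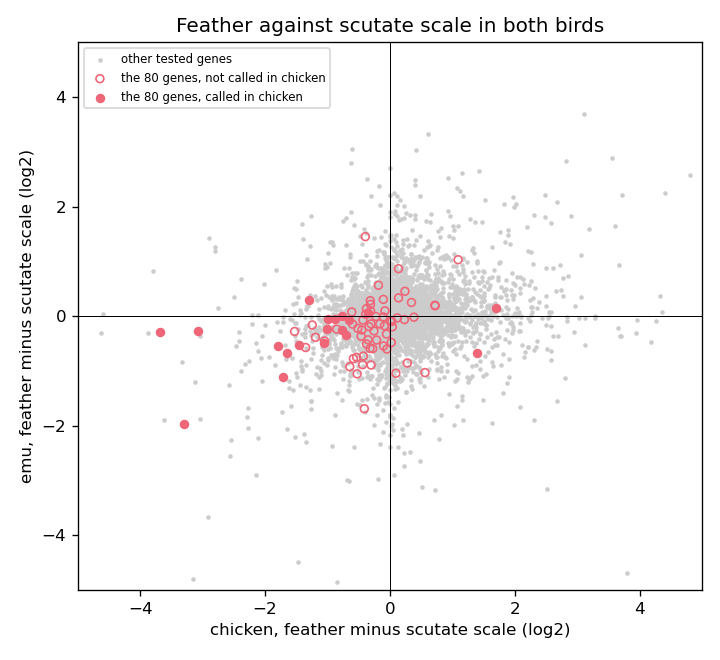
Feather minus scutate scale difference (log2 units) in chicken (horizontal axis) and emu (vertical axis) for the 80 genes and the other tested genes, of which 7 lie beyond the axes. Most of the 80 genes, 48, lie at the lower left, below 0 in both birds, and the 2 called on the right were higher in chicken feather.

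For 6 of the 80 genes (7.5%, against 4.28% of the tested genes) the feather and scutate scale difference was itself unequal in the birds, by the interaction term of the model. The emu minus chicken value of the difference was positive for 3 (3.75%, against 1.4% of the tested genes) and negative for 3 (3.75%, against 2.88%). It was 3.40 (SE 0.61, limma adjusted p 0.0165) for ENSGALG00000016153, which was lower in chicken feather by 3.69 log2 units and differed by only -0.28 in emu. ENSGALG00000001343 gave 2.81 (SE 0.53, limma adjusted p 0.0204). Its TPM was 2.76 and 3.48 in chicken feather and 20.6 and 54.2 in chicken scutate scale, but 11.7 and 11.1 in emu feather and 13.4 and 14.4 in emu scutate scale. Its reticulate scale TPM was 77.3 and 50.9 in chicken, overlapping scutate scale, and 46.6 in emu.

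The negative values with the smallest adjusted p belonged to ENSGALG00000002525 and ENSGALG00000009248. For ENSGALG00000002525 the interaction was -2.06 (SE 0.27, limma adjusted p 0.00462). Its emu TPM was 13.98 and 12.7 in feather, 21.98 and 21.5 in scutate scale, 6 in claw and 35.7 in reticulate scale, so that scutate scale lay above feather in emu and below it in chicken. For ENSGALG00000009248 it was -1.54 (SE 0.25, limma adjusted p 0.0117), with emu TPM of 10.8 and 10.5 in feather, 9.67 and 9.27 in scutate scale, 1.34 in claw and 20.4 in reticulate scale. Each of these interactions was refitted under 21 alternatives. ENSGALG00000002525 was called in all 21, ENSGALG00000009248 in 17 (adjusted p up to 0.0795), ENSGALG00000016153 in 16 (up to 0.0732) and ENSGALG00000001343 in 15 (up to 0.0847). Fewer interaction calls were made when any feather or scutate scale library was left out, among the 80 and over all tested genes alike. The median interaction of the 80 was then 0.07 to 0.27, against 0.19 with all libraries. Over the tested genes it was -0.04 to 0.02.

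**Figure D5:**
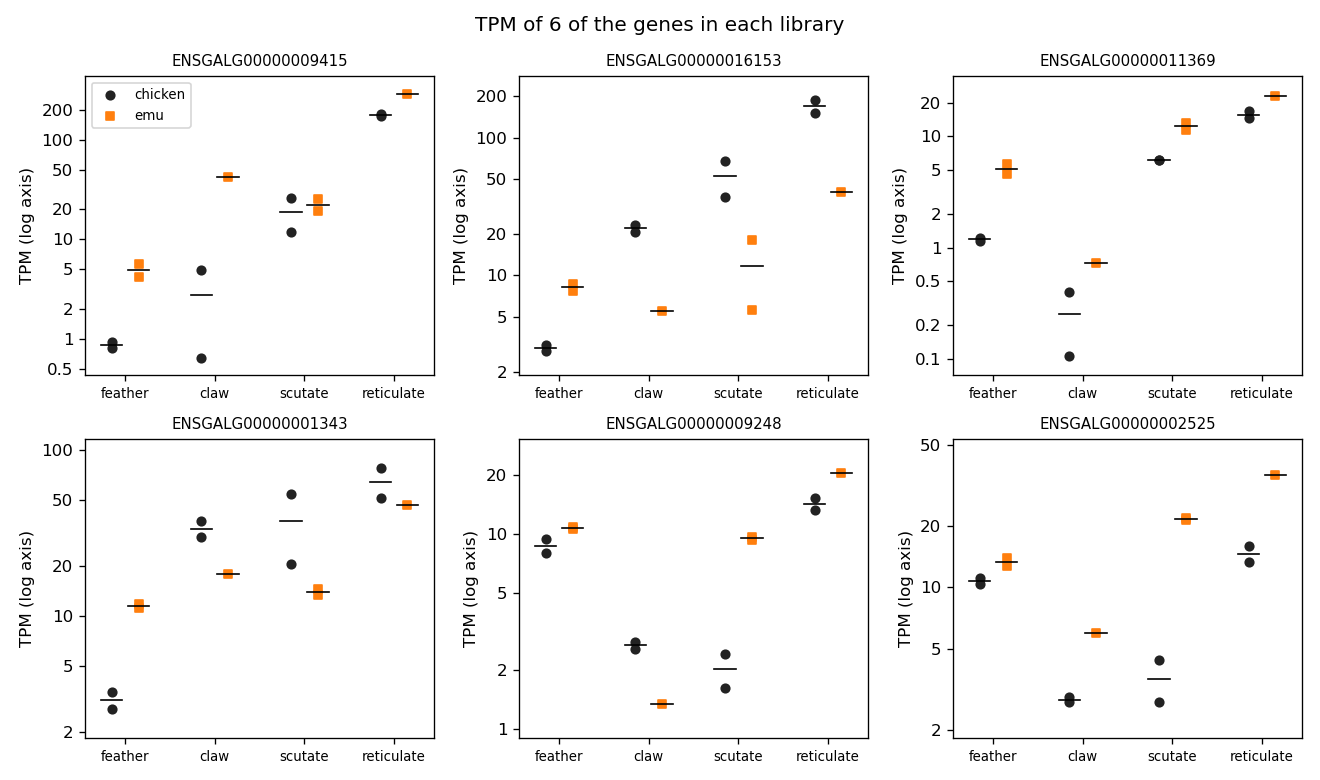
TPM (log axis) of 6 of the genes by appendage, with 1 point per library and a line at the mean, for chicken (black circles) and emu (orange squares). Reticulate scale is the highest mean in each panel, while ENSGALG00000001343 and ENSGALG00000016153 lie far lower in feather than in scutate scale in chicken and differ little there in emu.

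Claw was compared with the other tracts in chicken. Claw and scutate scale differed in 40 of the 80 genes (50%, against 48.7% of the tested genes), 37 lower and 3 higher in claw. The share called lower was 46.2%, against 38.0% of the tested genes, and the share called higher was 3.75%, against 10.7%. Claw and feather differed in 30 genes (37.5%, against 52.0%), 22 lower and 8 higher in claw, and the share called lower, 27.5%, was below the 42.5% of the tested genes. The share called higher was 10%, against 9.48%. The chicken claw libraries had the lowest listed TPM totals, and the median of all tested genes was itself -0.29 for claw minus scutate scale and -0.36 for claw minus feather. The medians of the 80 genes were -0.62 and -0.20.

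After median-ratio rescaling, which brings these overall medians to 0.03 and 0.00, the members' medians were -0.25 for claw minus scutate scale and 0.20 for claw minus feather. The calls were then 26 lower and 7 higher than scutate scale (32.5% and 8.75%, against 20.2% and 21.4% of the tested genes). Against feather they were 14 lower and 16 higher (17.5% and 20%, against 20.5% and 20.8%). After quantile normalization 23 were lower and 5 higher than scutate scale (28.8% and 6.25%, against 22.4% and 17.5%), and 13 lower and 16 higher than feather (16.2% and 20%, against 21.5% and 18%). The majority direction of claw against feather therefore changed with the scaling. The chicken claw replicates also differed more than other pairs, with an SD of 0.67 for their log2 difference. A fit of only the 4 libraries compared called 23 of the 80 genes against scutate scale, and 1913 of the 6747 genes tested in it.

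Of the 80 genes, the one with the smallest adjusted p in both claw contrasts, ENSGALG00000010001, was at 1.45 and 1.74 TPM in chicken claw, 22.3 and 22.8 in feather, and 24.9 and 43.7 in scutate scale, against 92.9 and 72.5 in reticulate scale. It was lower in claw than in scutate scale by a difference of -3.72 (SE 0.26, limma adjusted p 2.22e-05), and than in feather by -3.18 (SE 0.26, limma adjusted p 3.36e-05). The claw minus scutate scale difference of ENSGALG00000011369 was -2.52 (SE 0.18, limma adjusted p 2.72e-05), and the claw minus feather difference of ENSGALG00000002525 was -1.63 (SE 0.19, limma adjusted p 0.000191). In emu claw, at 19.2 TPM, ENSGALG00000010001 was close to emu feather, at 18.9 and 20.3, and in emu reticulate scale it was at 98.3.

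Among the genes called higher in claw, ENSGALG00000004730 was at 11.9 and 9.71 TPM in chicken claw, 1.60 and 2.55 in scutate scale, 1.89 and 2.87 in feather, and 22.3 and 16.4 in reticulate scale. Its claw minus scutate scale difference was 1.95 (SE 0.30, limma adjusted p 0.000863). In emu it was at 4.73 TPM in claw, 1.69 and 0.53 in scutate scale, 2.70 and 2.71 in feather, and 10.8 in reticulate scale, so claw was the next highest tract in both birds. ENSGALG00000013362 differed by 1.03 (SE 0.23, limma adjusted p 0.00523), but its adjusted p was 0.0642 in the fit of only the groups compared. Against feather, the differences of ENSGALG00000001343 and ENSGALG00000010256 were 3.06 (SE 0.37, limma adjusted p 0.000218) and 1.30 (SE 0.18, limma adjusted p 0.000423).

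In emu, where claw is 1 library, no test of claw was run and genes at least 2-fold apart on the TPM + 1 scale were counted. Claw was lower than scutate scale for 20 of the 80 genes (25%, against 7.88% of the tested genes) and higher for 2 (2.5%, against 5.91%). It was lower than feather for 18 (22.5%, against 9.63%) and higher for 3 (3.75%, against 7.59%). The median claw minus scutate scale difference of the 80 was -0.57 in emu, where all tested genes had -0.08.

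The share of these genes called between the species was below that of all tested genes in both tracts with replicates. In feather, 41 of the 80 (51.2%) were called between emu and chicken, against 62.4% of the tested genes, 29 higher and 12 lower in emu. The tested genes split into 32.8% higher and 29.6% lower, against 36.2% and 15% of the 80. In scutate scale, 45 (56.2%) were called, against 63.3%, 23 higher and 22 lower in emu. Here the tested genes split into 34.1% higher and 29.2% lower. Among the 5206 genes past the level filter of the rule, 59.5% were called in feather and 60.7% in scutate scale. Fewer calls do not mean smaller differences. The share of the 80 at least 2-fold apart, given further on, was above that of the genes past the filter in both tracts. It was below that of the tested genes. In both tracts 28 genes (35%) were called, against 51.7% of the tested genes and 49.1% of the genes past the level filter. The direction was the same for 26 of the 28 (92.9%), against 98.7% of the tested genes called in both. The median emu minus chicken difference of the 80 was 0.26 in feather and 0.02 in scutate scale, against 0.04 and 0.05 over the tested genes.

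ENSGALG00000004460 was among the genes lower in emu. It was at 54.0 and 57.4 TPM in chicken feather and 13.7 and 11.4 in emu feather, a difference of -2.07 (SE 0.17, limma adjusted p 5.89e-06). In scutate scale it was at 95.8 and 86.1 TPM in chicken and 15.2 and 16.9 in emu, a difference of -2.43 (SE 0.17, limma adjusted p 1.84e-06). Its reticulate scale TPM was 129 and 111 in chicken and 24.4 in emu. The birds did not overlap in any of these tracts, while reticulate scale was highest within each.

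ENSGALG00000011220 showed the opposite order, with 22.9 and 22.3 TPM in chicken feather and 95.3 and 99.5 in emu feather. Its emu minus chicken difference in feather was 2.06 (SE 0.18, limma adjusted p 9.33e-06). Its reticulate scale TPM was 49.7 and 37.2 in chicken and 165 in emu. In scutate scale the gene higher in emu with the smallest adjusted p was ENSGALG00000004385, at 2.22 and 3.90 TPM in chicken and 23.6 and 32.6 in emu, a difference of 2.86 (SE 0.23, limma adjusted p 6.09e-06). Its chicken score of 1.57 was well above its emu score of 0.44.

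The other examples of the species contrasts went both ways. In feather, ENSGALG00000021034 had an emu minus chicken difference of 1.75 (SE 0.21, limma adjusted p 7.27e-05), and ENSGALG00000002675 differed by -2.06 (SE 0.28, limma adjusted p 0.000178). In scutate scale, ENSGALG00000002525 had a difference of 2.34 (SE 0.19, limma adjusted p 6.37e-06), and ENSGALG00000013902 differed by -1.93 (SE 0.20, limma adjusted p 3.32e-05). In reticulate scale, with 1 emu library and no test, 23 of the 80 genes were at least 2-fold apart between the birds (28.8%), 18 higher and 5 lower in emu. The share was 40.1% of the tested genes and 28.3% of the 5206 genes past 5 TPM in the reticulate scale libraries, close to the share of the 80. By the same measure 35% of the 80 were apart in feather and 33.8% in scutate scale. The shares were 36.7% and 37.8% of the tested genes, and 25.8% and 27.0% of the genes past the filter. Of the 80 genes, 30 (37.5%) were called in none of the 4 contrasts between feather, scutate scale and claw, near the 36.0% of the tested genes.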

How the data were processed

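The authors deposited 1 table of 8751 genes by 14 libraries. No header states its unit. The deposited values were taken to be square roots of TPM, because the squares sum to 550000 in every emu library, and were squared to TPM. In chicken the squares sum to 500783 to 575133, so the emu libraries share a total that the chicken libraries do not. The submitters' processing notes name CASAVA, TopHat2 2.0.6 and HTSeq 0.5.3p9. The genome build and the matching of emu reads to chicken gene IDs are not given in the sources used here. TPM does not keep depth, so depth is unknown and no counting error is given.

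Libraries were assigned to 8 groups by the sample codes in their titles. The members and lists were chosen with earlier results of these data known. Group means were fitted in limma 3.58.1 under R 4.3.3 (eBayes with trend, 6 residual degrees of freedom, pseudocount 1). In simulated data on 7563 genes with a log2 change of 1.5 in 200 genes, the chicken feather against scutate scale contrast recovered 175 with 10 false calls, and the interaction 146 with 7. The simulated spread of a gene was equal in all groups. In the data the SD of the replicate difference was 0.268 in emu feather and 0.67 in chicken claw. These counts therefore do not show how the tests behave under unequal spread. Tables and figures used Python 3.11.15, pandas 2.3.3 and matplotlib 3.10.9.

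Genes were to be named by rank (the first 25, and those around the limit), by fixed lists, by smallest adjusted p per contrast and direction (up to 3), and by highest reticulate scale TPM (5). Since no ID carries a gene name, at most 2 per direction are named in each contrast, with the first ranks and the highest TPM. The 28 lists of pathways, cell type markers and other gene symbols could not be applied, and no sequences or promoter motifs were examined. The alternatives are given with the closing limits.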

Additional observations from a re-analysis of the deposited data

Results flagged for a closer look

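The feather against scutate scale difference was unequal in chicken and emu for 6 of the 80 genes, by the interaction term in limma. The emu minus chicken value was 3.40 for ENSGALG00000016153, 2.81 for ENSGALG00000001343 and 1.60 for ENSGALG00000020969. It was -2.06 for ENSGALG00000002525, -1.54 for ENSGALG00000009248 and -1.59 for ENSGALG00000004385. Of these 6, 5 were called between the appendages in chicken and 1 in emu. The same split was not counted over the tested genes with an interaction call, so it has no background. ENSGALG00000020969 differed by -1.30 in chicken and 0.30 in emu (interaction SE 0.37, limma adjusted p 0.0447). ENSGALG00000004385 differed by 0.56 in chicken and -1.03 in emu (interaction SE 0.33, limma adjusted p 0.0295). Over 21 alternatives, the calls of ENSGALG00000001343, ENSGALG00000016153 and ENSGALG00000009248 were kept in 15, 16 and 17, and that of ENSGALG00000002525 in 21. For ENSGALG00000020969 and ENSGALG00000004385 the interaction calls over the alternatives were not counted, so the steadiness of their calls is not described. No group had enough libraries for a check of single outlying samples.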

How the results depend on the processing

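The alternatives were fits of only the groups compared, eBayes with no trend, the replicate block, quantile normalization, a pseudocount of 0.1, no filter, a filter of 5 TPM in 2 samples, rescaling by median ratios, and leaving out each replicate. Leaving out both chicken claw libraries, and the rule without claw, were added after seeing the data. Leaving out 1 replicate at a time gave 9 to 27 calls among the 80 genes for chicken feather against scutate scale, 25 to 34 for chicken claw against feather and 32 to 45 for chicken claw against scutate scale. It gave 0 to 5 for emu feather against scutate scale, 31 to 45 between species in feather, 35 to 50 in scutate scale and 1 to 8 for the interaction. With 1 library left, a group is assumed to vary like the others. The calls over all tested genes also changed in these fits. In each contrast, the fit with the most calls over all tested genes also had the most among the 80, alone or tied. The ranges are therefore not particular to the 80 genes. Between 58 and 79 of the 80 genes stayed in the first 80 of the rule. Without claw in the rule, 35 did, and 944 genes then had both scores above 0. Fits of only the groups compared gave 23 calls for chicken claw against scutate scale, with 1913 of 6747 tested genes called. For emu feather against scutate scale they gave 12, with 686 of 6854 called. A pseudocount of 0.1 gave 0 for the emu contrast, with 284 of 7563 called. Without both chicken claw libraries the emu contrast gave 5, with 662 of 7484 called. The cause was not tested. The replicate numbers are not stated to pair the libraries. With them as a block the counts were 18 for chicken feather against scutate scale and 30 and 41 for claw. They were 2 in emu, 42 and 44 between species, and 5 for the interaction. Of the 7563 tested genes, the block called 675, 3818 and 3586, 311, 4645 and 4746, and 281 in the same order. Same-number deviations correlated at -0.191 between chicken feather and chicken scutate scale and at -0.0433 between the emu groups. Of 538 refits of the 26 named gene and contrast pairs, 510 kept call and direction, 28 missed the threshold and 0 reversed. What depth limits cannot be stated from TPM.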
